A study of Mus musculus with 4 samples.

Results

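DDX5 is a DEAD-box RNA helicase that also acts as a transcriptional co-factor, and the list of chromatin regions common to 2 DDX5 ChIP libraries held 1 peak each for *Erg*, *Foxc2* and *Cux2*, or 3 of 101 peaks. These genes were selected on measured values, namely the presence of an assigned peak and the study's own classification of them as lower in expression after *Ddx5* loss, so their presence in the list is a description and was not tested. RNA levels were not analysed here. The cells were undifferentiated spermatogonia, the germ cells of the testis that include its stem cells, taken from wildtype mice as independently derived lines and grown on inactivated mouse embryonic fibroblast feeders with GDNF, bFGF and EGF. No allele was changed in any group. The groups were DDX5 ChIP (goat anti-DDX5 antibody, n = 2) and input chromatin without antibody (n = 2).

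*Erg* encodes an ETS-family activator best known from endothelial and blood stem cells. *Foxc2* encodes a forkhead factor of mesenchyme and lymphatic vessels that has also been described in a subset of adult spermatogonial stem cells. *Cux2* encodes a CUT-homeobox factor known mainly from upper-layer cortical neurons. Regulatory DNA near a transcription start site (TSS) is called a promoter, whereas enhancers can lie in introns or between genes, and a ChIP peak at either kind of site can come from a protein that touches DNA through a partner.

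The 3 regions are shown first because their letters carry the comparison with the promoter peaks. The central 200 bp of each is given on the plus strand of mm10 (read from GRCm38.p6, the same build), with every CANNTG hexamer in capitals. CANNTG is the general E-box, the class of site that basic helix-loop-helix factors recognise.
Erg, chr16:95526293-95526492: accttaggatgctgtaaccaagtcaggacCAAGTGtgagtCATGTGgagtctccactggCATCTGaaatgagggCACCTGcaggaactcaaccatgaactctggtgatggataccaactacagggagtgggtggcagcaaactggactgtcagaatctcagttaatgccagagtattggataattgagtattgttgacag
Foxc2, chr8:121120749-121120948: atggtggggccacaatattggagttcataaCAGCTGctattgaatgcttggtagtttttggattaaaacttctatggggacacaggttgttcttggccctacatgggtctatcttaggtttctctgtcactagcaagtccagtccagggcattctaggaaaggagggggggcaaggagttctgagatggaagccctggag
Cux2, chr5:121960506-121960705: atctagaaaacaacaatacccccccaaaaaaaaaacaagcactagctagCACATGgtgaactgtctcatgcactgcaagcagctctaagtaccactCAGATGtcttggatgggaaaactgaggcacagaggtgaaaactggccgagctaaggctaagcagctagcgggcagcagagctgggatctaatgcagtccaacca
None of these hexamers was CACGTG, the palindromic E-box at the core of the CLEAR element of lysosomal and autophagy genes.

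The *Erg* peak was an intronic region of 526 bp on chr16:95526130-95526655. Its centre lay in intron 1 of 10 of NM_133659, which spans 5649 bp, at 3871 bp past the upstream exon and 1777 bp before the next. The listed distance was 3973 bp downstream of a TSS at position 95530365 on the minus strand. That TSS is an internal one of a long gene, because *Erg* has 3 curated RefSeq start sites and the peak lay 60201 bp downstream of the most upstream of them and 67044 bp upstream of the most downstream. The body of *Erg* covers 227432 bp, and the closest curated RefSeq TSS of another gene on the higher-coordinate side belonged to *Ets2*, an ETS-family relative, at 176015 bp. On the other side the closest curated TSS was that of *Gm31641* at 266690 bp. With predicted RefSeq transcripts included, *Gm31845* at 141768 bp and *Kcnj15* at 233269 bp were closer, and in GENCODE M21 the start of *Gm31641* lay at 170716 bp.

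The *Foxc2* peak was an intergenic region of 716 bp on chr8:121120491-121121206. It began 1596 bp beyond the end of the 2725 bp gene body, and its centre lay 4677 bp downstream of the single *Foxc2* TSS. The next gene in that direction was *Foxl1*, another forkhead gene, whose TSS was 6837 bp from the centre. On the opposite side, *Mthfsd* had its nearest curated TSS at 12511 bp from the centre. *Foxf1*, a further forkhead gene of this cluster, lay beyond it on that side, with its TSS at 36462 bp. The assignment of the region to *Foxc2* therefore rested on 4677 bp against 6837 bp, and no other peak of the list was nearer to *Foxl1* or *Foxf1*.

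The *Cux2* peak was an intronic region of 881 bp on chr5:121960165-121961045. It lay inside intron 2 of 22 of NM_001312908, an intron of 118854 bp, with 83164 bp to the upstream exon and 35689 bp to the next exon. The listed TSS at position 122047825 was 87220 bp upstream of the centre. Among the 70 peaks outside promoters, 49 had a shorter distance to their TSS than *Cux2* did. The gene body spans 192454 bp, and the closest curated TSS of other genes were those of *Pheta1* at 111608 bp and *Myl2* at 132119 bp. With predicted RefSeq transcripts included, *Gm52785* at 93249 bp and *Gm52786* at 94511 bp were closer. In GENCODE M21 the start of *Gm3970* lay at 64725 bp, nearer than the listed *Cux2* TSS.

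The word "distal" thus described these regions unevenly. The centres of the *Erg* and *Foxc2* peaks were within 5 kb of a TSS of their gene, a range that held 12 of the 70 peaks outside promoters. *Cux2* was one of the 55 peaks of that set beyond 10 kb. The *Foxc2* region was the nearest to a TSS of all 17 intergenic peaks, whose median distance was 77312 bp. All 3 members lay downstream of the listed TSS, and none overlapped the promoter window of 1000 bp upstream to 100 bp downstream that defines the promoter-TSS class. No second peak lay close by. The nearest other listed peak was 687595 bp from *Cux2*, 1013081 bp from *Foxc2* and 61209215 bp from *Erg*.

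**Figure D1:**
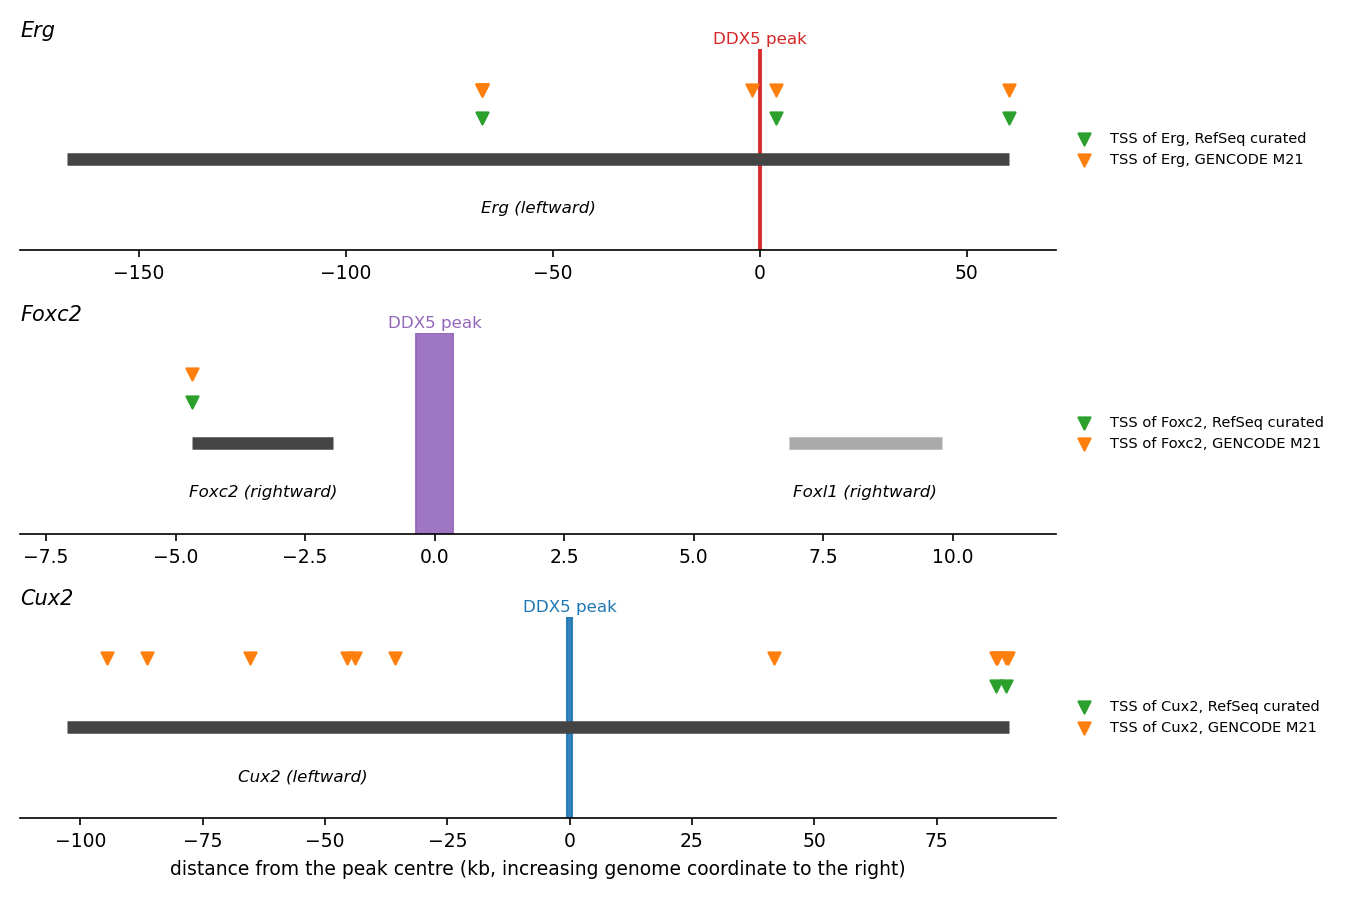
Position of the DDX5 peak (coloured bar, true width) relative to the gene body (thick line) of *Erg*, *Foxc2* and *Cux2*, with distance from the peak centre in kb on the x axis and a separate scale in each panel. Triangles mark annotated start sites of the gene in curated RefSeq (green) and GENCODE M21 (orange), and start sites of predicted RefSeq transcripts are not drawn. The *Foxc2* peak lies 4677 bp from its TSS, between *Foxc2* and *Foxl1*, and the *Cux2* peak 87220 bp from its listed TSS.

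The distances depended on which transcripts were counted. In GENCODE M21 the nearest *Erg* start site lay 1789 bp from the peak centre, and the nearest *Cux2* start site 35684 bp from it. Both of these starts lie at or next to the exon that follows the intron of the peak, so relative to them the peaks lie upstream and not downstream. Each is the start of only 1 annotated transcript, and whether that transcript is complete at its 5′ end was not checked. With predicted RefSeq transcripts included, the *Cux2* peak lay 41763 bp downstream of the start of XM_011248176. For *Foxc2* the distance was 4677 bp in every annotation used.

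The peak score was 5.23 for *Erg*, 5.785 for *Foxc2* and 6.71 for *Cux2*. This score is the value given by the peak caller, here 1 value for both ChIP libraries. A larger score is read here as a stronger peak, without regard to peak length. The list holds no value of a single library, so neither a spread between the lines nor an enrichment over input can be given, and the depth behind each score is unknown. In the order of all 101 peaks from the highest score, *Cux2* ranked 53, *Foxc2* 72 and *Erg* 90. The lowest score in the list was 4.77, and the members exceeded it by 1.10-fold (*Erg*), 1.21-fold (*Foxc2*) and 1.41-fold (*Cux2*). The neighbours of *Erg* in score order were *Raph1* at 5.265 and *Kalrn* at 5.22, with *Atp4b* tied at 5.23. The *Foxc2* peak was tied with *Rasgrp1* and stood between *Faxc* at 5.795 and *Adam12* at 5.77. The *Cux2* peak stood between *Abcc12* at 6.78 and *Sdk1* at 6.555. Without replicate error, it cannot be said whether any of these neighbours differ.

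The 31 promoter-TSS peaks had a median score of 11.8 and a range of 5.635 to 41.9. The *Erg* score was below all of them, the *Foxc2* score was above 1 of them and the *Cux2* score above 2. The median of the promoter peaks was 2.26-fold the *Erg* score, 2.04-fold the *Foxc2* score and 1.76-fold the *Cux2* score. The promoter peak with the highest score belonged to *Lamp1*, a lysosomal membrane glycoprotein gene, and the one with the lowest to *Usf2*, which encodes a factor that itself binds E-boxes.

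Beside peaks of their own class, *Cux2* was above the median score, *Foxc2* at it and *Erg* in the lower part. The 40 intron peaks had a median score of 6.09, and among them *Cux2* ranked 16 and *Erg* 36. The *Foxc2* score equalled the median of the 17 intergenic peaks, 5.785, with rank 8. Over the 70 peaks outside promoters, whose median was 6.01, *Cux2* ranked 24, *Foxc2* 42 and *Erg* 59. Scores under 6, like those of *Erg* and *Foxc2*, were found for 34 of the 70 peaks outside promoters, both members included (48.6%, 95% Wilson interval 37.2 to 60.0), and for 1 of 31 promoter peaks (3.23%, 0.572 to 16.2). Intervals here cover counting error only. The 6 peaks outside promoters that lay 1 to 5 kb from a TSS, with *Erg* and *Foxc2* among them, ranged from 5.23 to 17.7, and *Erg* was the lowest of these.

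**Figure D2:**
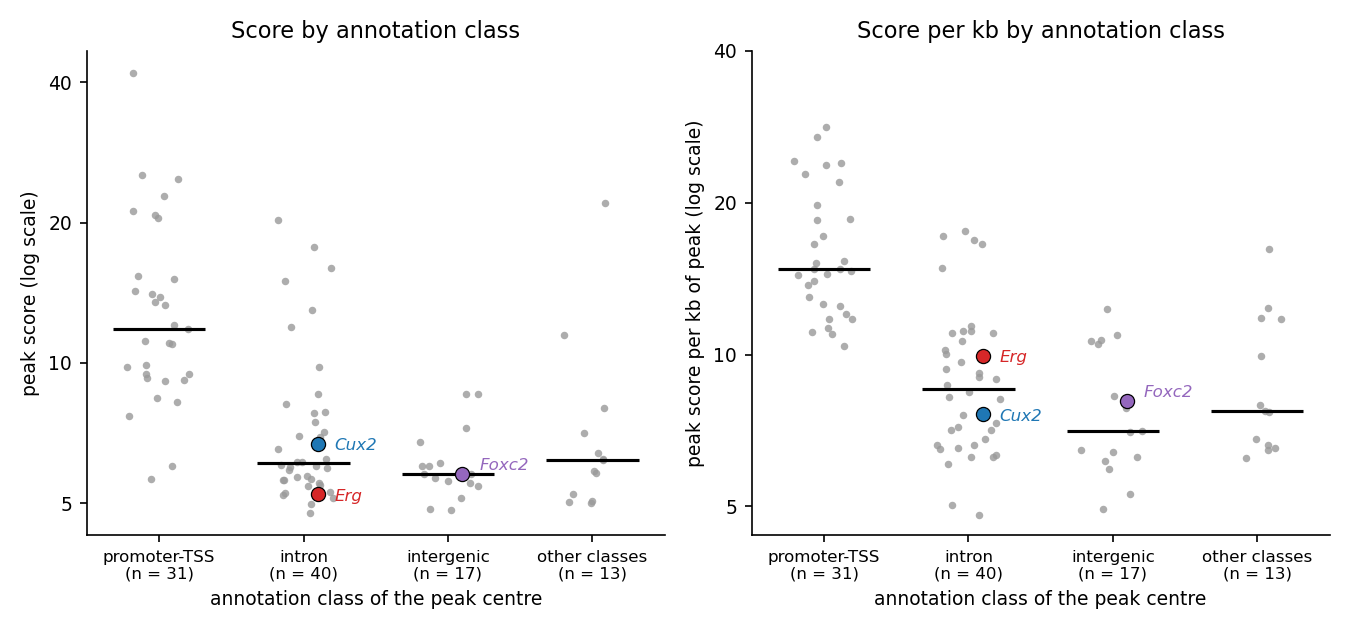
Peak score (left) and peak score per kb of peak length (right), both on log axes, for the 101 DDX5 peaks by the annotation class of the peak centre. Each point is 1 peak, black lines are class medians (11.8 for promoter-TSS, 6.09 for intron and 5.785 for intergenic scores), and the 3 coloured points are *Erg*, *Foxc2* and *Cux2*, which on the right all lie below every promoter-TSS peak.

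The peaks differed in length, and dividing by length changed the order of the members. How the score depends on length is not known from the list, so the values per kb are a description only. The score per kb was 9.94 for *Erg*, 8.08 for *Foxc2* and 7.62 for *Cux2*, the reverse of the order of the scores themselves. *Erg*, the shortest of the 3 peaks, moved from rank 90 to rank 55, whereas *Foxc2* moved to rank 66 and *Cux2* to rank 71. On this scale all 3 members were below the promoter peak with the lowest value, that of *Arhgap12* at 10.4, and the promoter median was 14.8. The intron median was 8.56 and the intergenic median 7.06 per kb, so *Erg* was above and *Cux2* below the median of the intron peaks, and *Foxc2* was above that of the intergenic peaks.

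In GC and CpG content all 3 member regions lay below every promoter peak. Against the medians of the peaks outside promoters, *Foxc2* and *Cux2* were higher in both, and *Erg* was higher in GC and lower in CpG. GC content was 47.3% in *Erg*, 51.8% in *Foxc2* and 52.8% in *Cux2*, against a promoter median of 64.1% with a range of 53.2 to 80.5%. All 3 members were below the lowest promoter peak, and the median of the peaks outside promoters was 46.9%. CpG dinucleotides numbered 3.80 per kb in *Erg*, 18.2 in *Foxc2* and 21.6 in *Cux2*. Promoter peaks had a median of 81.0 per kb and none under 46.9, whereas the median outside promoters was 12.4. Soft-masked repeat sequence made up 0% of the *Erg* region, 3.07% of *Foxc2* and 20.0% of *Cux2*, with a median of 9.63% outside promoters. In none of the 3 did the detailed annotation name a repeat, as it did for 12 of the 70 peaks outside promoters.

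Repeated sequence can draw reads from elsewhere, so each 50-base stretch of the members, the read length of the libraries, was looked up in the genome. The search covered the assembled autosomes, X and Y on both strands. It counted exact copies only, so near-identical copies were not seen. All 477 stretches of *Erg* and all 667 of *Foxc2* occurred once. In *Cux2*, 828 of 832 (99.5%) occurred once, and the most repeated stretch occurred 10 times. The median share of unique stretches was 100% both in promoter peaks and in the others.

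E-box content was then set beside that of the promoter peaks. The study had found the CLEAR element enriched in a motif search of its DDX5 peaks, the list used here. CACGTG and CLEAR thus came from these same peaks. Their shares are a description and no independent evidence of binding. CACGTG was searched for on both strands, which give the same count because it is a palindrome, and CANNTG includes it. The *Erg* region held 0 CACGTG and 5 CANNTG sites, the *Foxc2* region 0 and 4, and the *Cux2* region 1 and 10. Promoter-TSS peaks held at least 1 CACGTG in 30 of 31 cases (96.8%, 95% Wilson interval 83.8 to 99.4), with a median of 2 sites. Peaks outside promoters held one in 20 of 70 cases (28.6%, 19.3 to 40.1). Among intron peaks the count was 13 of 40, and among intergenic peaks 2 of 17. The *Erg* and *Foxc2* regions were thus among the 50 peaks outside promoters that had none. Over the assembled autosomes, X and Y, CACGTG occurred in 5.002% of gap-free windows as long as the *Erg* peak. The share was 6.74% at the length of *Foxc2* and 8.22% at the length of *Cux2*. Among windows within 2.5 percentage points of the GC content of each region, the shares were 6.72%, 11.1% and 13.96%.

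The single CACGTG of *Cux2* is shown next to those of *Lamp1*, the promoter peak with the highest score. Each line gives 80 bp of the plus strand with CACGTG in capitals.
Cux2, chr5:121960801-121960880: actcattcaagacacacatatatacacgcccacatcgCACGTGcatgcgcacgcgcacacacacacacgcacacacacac
Lamp1, chr8:13159063-13159142: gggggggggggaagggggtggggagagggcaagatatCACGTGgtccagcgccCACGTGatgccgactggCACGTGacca
The *Cux2* site sat 236 bp from the peak centre, outside the central 200 bp, at the edge of a CA-rich stretch. Of the 80 bases shown for *Cux2*, 61 were C or A and 62 were soft-masked as repeat. The *Lamp1* region held 6 CACGTG sites in all, 3 of them in the window printed and 4 within its central 200 bp. In the central 200 bp, CACGTG was present in 28 of 31 promoter peaks (90.3%), in 6 of 70 others (8.57%) and in none of the 3 members.

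**Figure D3:**
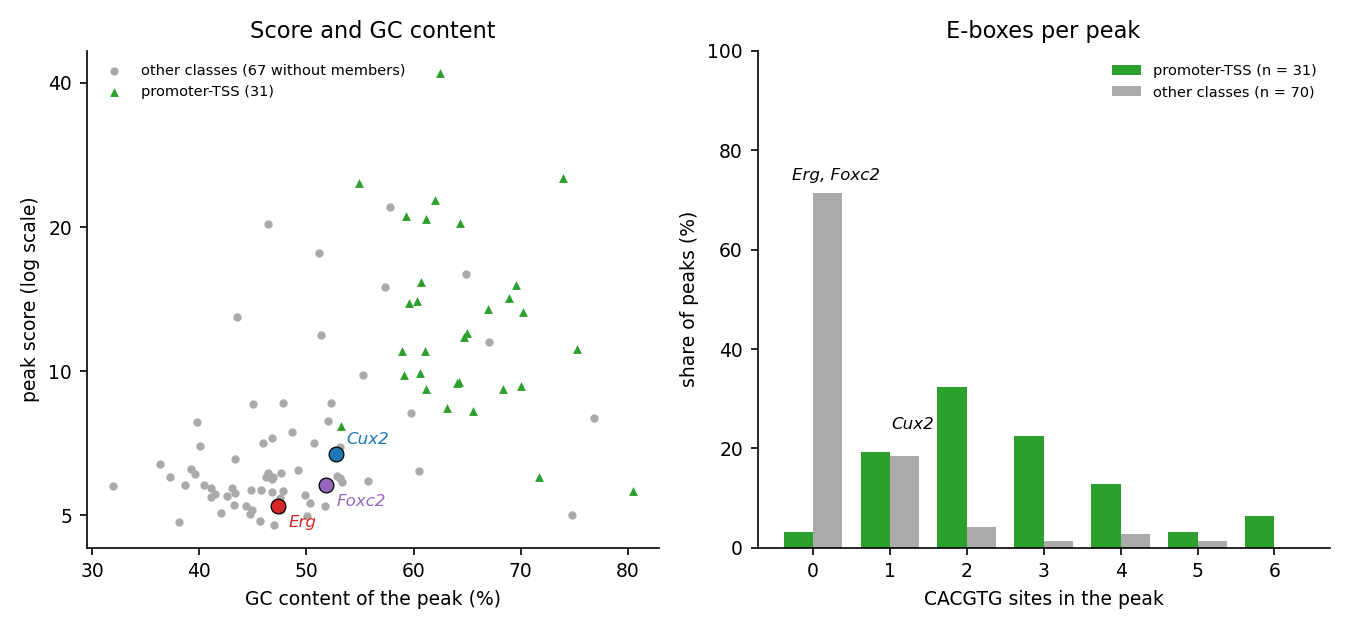
Left, peak score (log axis) against GC content in percent for the promoter-TSS peaks (green triangles), the other peaks (grey) and the 3 members (large coloured points), which lie at 47.3 to 52.8% GC, below every promoter peak. Right, share of peaks in percent by number of CACGTG sites for promoter-TSS peaks (green) and all other peaks (grey, members included), with the bins that hold *Erg*, *Foxc2* and *Cux2* named.

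The CLEAR consensus has GT before and AC after CACGTG, and the member regions held no match with at most 1 mismatch. Substitutions are written with the consensus base first and are numbered along the consensus, position 1 being its 5′ base. The best match in *Cux2* had 2 mismatches and occurred at 2 places, one with C3G and C5T at -424 bp from the centre and the other with T2A and C5G at -272 bp, where negative values are lower coordinates. *Erg* had its best match with 3 mismatches, C5T, A9G and C10A, at -56 bp from the centre. *Foxc2* had no match closer than 4 mismatches, a level met at 7 places. The share of all genome windows of the same length with a match at least as close was 17.7% for *Cux2*, 61.5% for *Erg* and 99.9% for *Foxc2*. A match with at most 1 mismatch was found in 23 of 31 promoter peaks (74.2%), in 8 of 70 others (11.4%) and in none of the members. With at most 2 mismatches the counts were 30 of 31 (96.8%) and 26 of 70 (37.1%), the latter with *Cux2*. With at most 3 they were 31 of 31 and 57 of 70 (81.4%), the latter with *Cux2* and *Erg*.

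The promoters of *Erg*, *Foxc2* and *Cux2* had no assigned peak. RefSeq promoter sequences, from 250 bp before to 50 bp after a start site, were given for 3 start sites of *Erg* and 2 of *Cux2*. The reference used held no such sequence for *Foxc2*. None of these 5 windows contained CACGTG, and their best CLEAR matches had 3 or 4 mismatches. Over all 32851 promoter windows of the reference, 7.15% held CACGTG and 1.84% a CLEAR match with at most 1 mismatch.

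Among the relatives of the members, each had the only assigned peak of its family. The list assigned a peak to 1 of 27 ETS-family genes (*Erg*), 1 of 44 forkhead genes (*Foxc2*) and 1 of 7 CUT-class genes (*Cux2*). Over all 21900 protein-coding genes of the reference, 88 had an assigned peak, or 0.402%. With 1 gene per family, chosen because it had a peak, these counts say nothing further about the families. The nearest peak to any other ETS gene was the *Erg* peak itself, 176015 bp from *Ets2*, and the nearest to another CUT-class gene lay 2204092 bp from *Onecut3*. Within 100 kb of a peak there were 3 forkhead genes, *Foxc2*, *Foxl1* and *Foxf1*, all around the same region. Of 24 transcription factor genes that mark or act in undifferentiated or differentiating spermatogonia, among them *Zbtb16* (PLZF), *Id4*, *Etv5* and *Sall4*, none had an assigned peak, and the closest was *Bcl6b* at 228507 bp. A count of 0 in 24 is near the share of 0.402% over all protein-coding genes, so it is no result about these factors.

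A peak in a list of this kind shows that DNA of the region was recovered with the antibody in both libraries. It cannot separate direct DNA contact from association through another protein, nor does it tie a region to the transcription of the gene with the nearest TSS. Whether chromatin of the feeder fibroblasts contributed to the *Foxc2* region or the others was not tested, and the list holds no expression values with which the labelled cell type could be checked.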

How the data were processed

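Per the labels and the study's methods, chromatin of 2 lines was immunoprecipitated for DDX5, with 2 input libraries, and sequenced as 50 bp single-end reads. The submitters' processing notes name Bowtie2 2.2.5, SAMtools 1.3.1, HOMER (version not given in the sources used here) and mm10. The authors filtered out alignments that were unmapped or of low quality, ran findPeaks with histone parameters, merged the regions of both libraries and annotated them with annotatePeaks.pl. The deposited peak score is 1 value for both libraries; how they were combined is not stated. The deposited distance, in bp, runs from the peak centre to the nearest TSS.

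From there, ranks, counts, motifs and distances were computed on GRCm38.p6 with its RefSeq annotation and GENCODE M21, using Python 3.11.15, numpy 2.4.6, pandas 2.3.3 and scipy 1.17.1. Of 101 listed transcripts 98 were found in that reference, 97 with a distance within 200 bp of the listed one, the members among them. The motif search was checked for errors on simulated sequences with planted sites, which is not a test of the peaks. No test was made over the members. Members, gene lists and comparisons were chosen with earlier results of these data known. Genes were named if they were members, the highest or lowest promoter-TSS peaks, neighbours in score or position, or list genes with the nearest peak; *Atp4b*, *Rasgrp1*, *Arhgap12*, the 3 other genes of a shared octamer, *Foxf1*, *Zbtb16*, *Id4*, *Etv5* and *Sall4* were added after their values were seen.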

Additional observations from a re-analysis of the deposited data

How the results depend on the processing

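No paired analysis was possible because the list holds 1 score per peak and no value of a single library. For the same reason no library could be left out. Of 33 alternative values for the members and the promoter contrast, 20 stayed within 1.5 times the reported value, or within the interval of a reported share, and 13 did not. With scores per kb, *Erg* moved from rank 90 to 55, and the promoter-TSS peaks below *Foxc2* and *Cux2* fell to 0. With promoter peaks defined as centres within 1 kb of a TSS, 1 peak scored lower than *Erg* and 2 lower than *Foxc2*. The *Cux2* distance was 41763 bp to the nearest RefSeq start site of any kind, and 35684 bp in GENCODE M21, where that of *Erg* was 1789 bp; GENCODE was added after seeing the data. In the central 200 bp, the CACGTG count of *Cux2* was 0 and its best CLEAR match had 4 mismatches, and the share of peaks outside promoters with CACGTG was 8.57%. A score of at least 6 kept 1 member and one of at least 10 kept 0. The unknown depth and the lack of values per library limit every score given here, and peaks that fell short of the list in 1 library are not seen.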

Other observations

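The best CLEAR match of *Erg* and one of the 7 best matches of *Foxc2* overlapped in the same 8 bases, TCATGTGG, a stretch chosen after the sequences had been seen. In *Erg* it lay on chr16:95526332-95526339, -56 bp from the peak centre (lower coordinates), and in *Foxc2* on chr8:121121105-121121112, 260 bp from the centre on the other side. It was searched for on both strands and overlaps CANNTG. It occurred in 5 of 101 peaks, the others being those of *Amdhd2* (promoter-TSS, score 14.05), *Gm10677* (intron, 8.56) and *St8sia2* (intergenic, 6.01), and not in *Cux2*. Of genome windows of the same length, 2.88% held it at the length of *Erg* and 3.92% at that of *Foxc2*. Because it was picked from these sequences, the match is a description only.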
